A study of Mus musculus with 4 samples.

Results

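Binding of Pcbp1 was examined at 10 genes of cellular iron handling in mouse embryonic stem cells: the ferritin subunit genes Fth1 and Ftl1, the iron importers Tfrc and Slc11a2, the exporter Slc40a1, the regulators Ireb2 and Aco1, the ferritin receptor Ncoa4, and the partner genes Bola2 and Glrx3. Peaks were assigned to a gene when their summit lay within 20 kb of its annotated body. This selected 14 of the 12132 Naive peaks and 2 of the 3494 EpiLC peaks, from 10 of the 21887 protein-coding genes in the annotation. The assignment used gene names and positions only, not the height of the peaks.

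The peaks came from chromatin immunoprecipitation sequencing (ChIP-seq) with a Pcbp1 antibody in E14 Tg2a cells, an established line of mouse embryonic stem cells. Naive cells had been adapted over 3 passages to N2B27 medium without serum that held LIF, the MEK inhibitor PD0325901 (1 uM) and the GSK3 inhibitor CHIR99021 (3 uM). Primed epiblast-like cells (EpiLC) were made from them over 48 hours on fibronectin with 12 ng/ml bFGF, 20 ng/ml Activin A and 1% KOSR. Each state had 1 Pcbp1 ChIP library and 1 input library, all from the same line, so no value below has a replicate error and no test between the states was possible.

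Pcbp1 binds C-rich stretches of RNA and DNA, and in the cytosol it also acts as an iron chaperone. It hands ferrous iron to ferritin, the protein shell that stores it, and with Bola2 it passes iron on for the assembly of a cluster shared by Bola2 and Glrx3. Cells take up transferrin-bound iron through the receptor encoded by Tfrc, export it through ferroportin (Slc40a1), and adjust both through the iron regulatory proteins Aco1 and Ireb2, which bind the messenger RNAs of these genes. ChIP-seq records Pcbp1 on chromatin only and does not report on these cytosolic or RNA-level roles.

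The sources used here give no read totals. The fold enrichment of a peak is the authors' ratio of coverage at the summit to the local background of their peak caller. From fold and p-value the number of fragments piled up at each summit was recovered, which gave a 95% Poisson counting interval for each fold. The genome-wide background recovered in this way came to 4.004 fragments for Naive and 7.43 for EpiLC. Median folds were 4.43 (Naive) and 3.41 (EpiLC). Of 6 naive marker genes, 5 had a summit within 1 kb of a gene end in Naive and 1 in EpiLC. Of 6 primed marker genes, 5 had one in EpiLC and 0 in Naive. The markers were chosen with earlier results of these data known, so these counts are no independent check of the labels. The lists hold no expression values.

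Of the 10 iron genes, 6 had a Naive summit within 20 kb (Fth1, Ftl1, Tfrc, Ncoa4, Bola2 and Glrx3), beside 44.0% of all protein-coding genes. In EpiLC, 2 had one (Slc40a1 and Bola2), beside 17.3% of all genes. Bola2 was the 1 gene with a peak in both lists, and Slc11a2, Ireb2 and Aco1 had none in either. With 10 genes, neither count stands far from its background. The Naive list was also the longer one. It was cut to its 3494 peaks of lowest p-value, as many as in EpiLC. That left 2 of the 10 genes with a Naive summit within 20 kb (Tfrc and Ncoa4). No share of all genes is given for the shortened list, so this drop is not shown to be particular to iron genes. Closer to the genes, 4 of 10 had a Naive summit within 1 kb of an annotated end, beside 19.3% of all genes, and 2 of 10 had an EpiLC summit there, beside 5.61%.

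**Figure D1:**
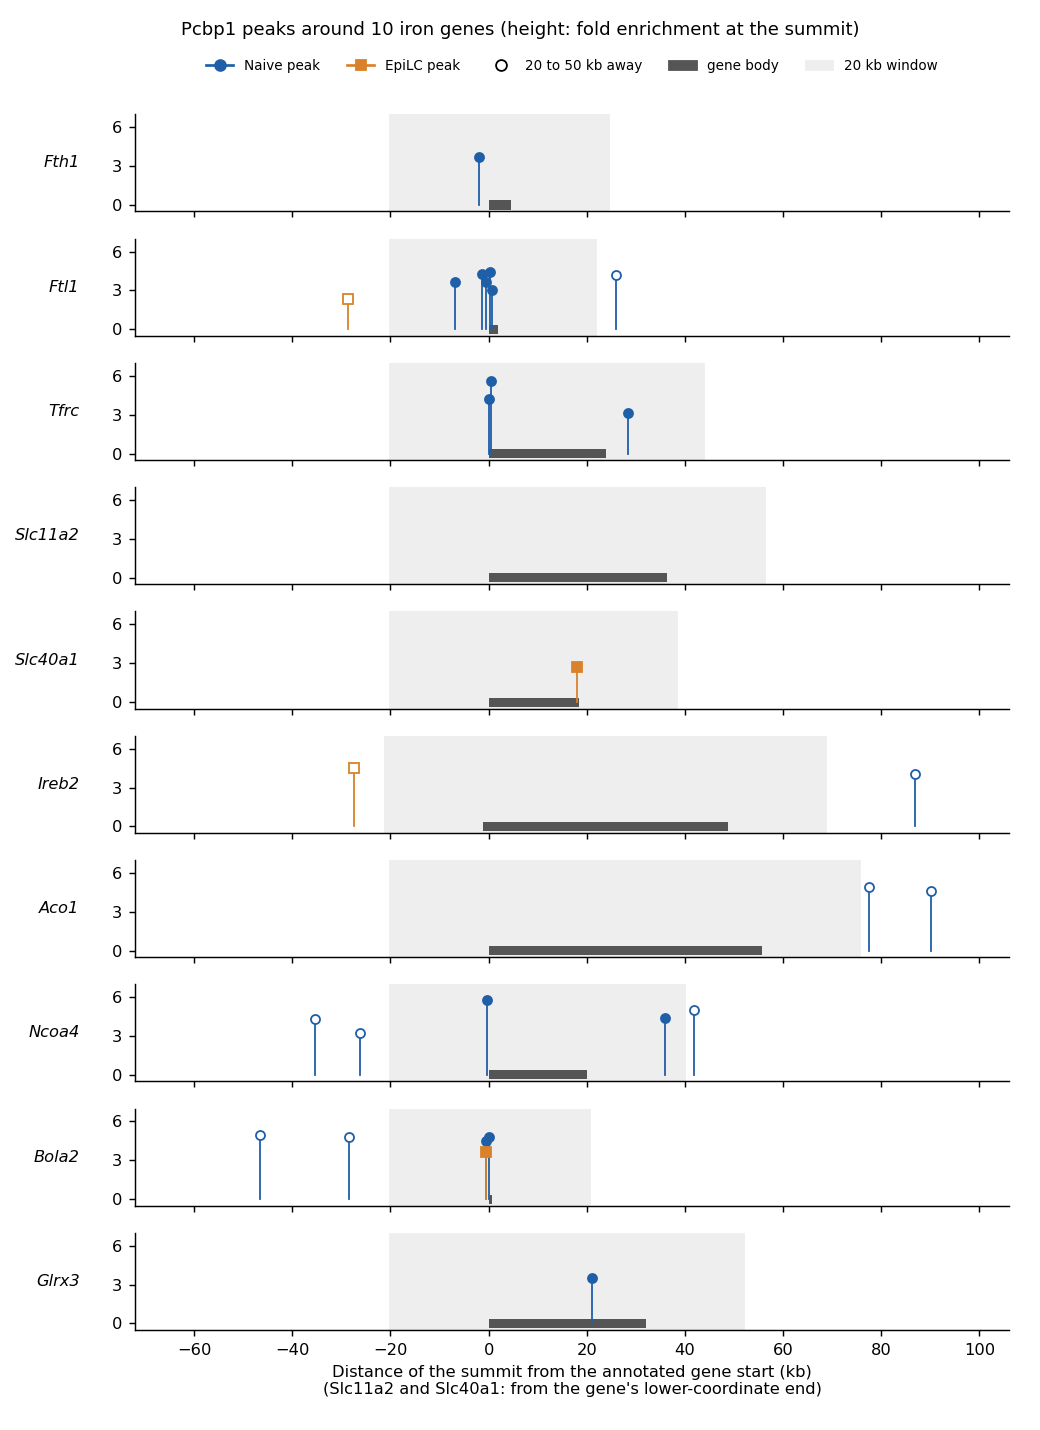
Pcbp1 peaks around each of the 10 iron genes. The horizontal axis is the distance of the summit from the annotated gene start in kb (for Slc11a2 and Slc40a1, from the lower-coordinate end), and the height is the fold enrichment. Grey bars are gene bodies, pale bands the 20 kb window, filled circles Naive peaks, filled squares EpiLC peaks, and open symbols peaks 20 to 50 kb away. Peaks more than 50 kb from the gene body are not drawn. Naive peaks gather at the starts of Ftl1, Tfrc, Ncoa4 and Bola2, and Slc11a2 has no peak within 50 kb.

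The bases just upstream of 4 gene starts are shown because these are the starts with a Naive summit within 1 kb. They are the RefSeq sequences of build GRCm38.p6, 5′ to 3′ on the strand of the gene and ending 1 base before the annotated start. For Ncoa4 the start used, 32159887, lay inside the annotated gene body, which begins at 32159879. The last bases of its run are therefore within the annotated gene. Capitals mark runs of CCCC or the longer motif CCCTCCC on either strand (GGGG and GGGAGGG on the strand shown). The Ncoa4 run is chr14:32159637-32159886 (+), Tfrc chr16:32608646-32608895 (+) and Ftl1 chr7:45459887-45460136 (−), each of 250 bases. The Bola2 run, chr7:126695784-126695999 (+), is the 216 bases between its start and the start of Slx1b on the opposite strand.
Ncoa4: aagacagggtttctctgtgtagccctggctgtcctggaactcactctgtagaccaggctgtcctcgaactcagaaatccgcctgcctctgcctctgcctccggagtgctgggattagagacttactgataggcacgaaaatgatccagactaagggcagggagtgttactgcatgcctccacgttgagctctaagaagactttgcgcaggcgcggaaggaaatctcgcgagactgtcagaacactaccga
Tfrc: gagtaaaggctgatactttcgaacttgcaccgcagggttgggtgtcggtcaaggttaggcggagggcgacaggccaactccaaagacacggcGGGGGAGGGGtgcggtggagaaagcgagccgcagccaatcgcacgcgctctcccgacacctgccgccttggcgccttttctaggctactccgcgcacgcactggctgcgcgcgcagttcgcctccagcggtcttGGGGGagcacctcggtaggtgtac
Bola2: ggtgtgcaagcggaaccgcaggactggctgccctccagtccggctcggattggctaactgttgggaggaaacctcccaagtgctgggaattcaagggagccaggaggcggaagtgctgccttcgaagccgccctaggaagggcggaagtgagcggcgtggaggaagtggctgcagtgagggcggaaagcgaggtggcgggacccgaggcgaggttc
Ftl1: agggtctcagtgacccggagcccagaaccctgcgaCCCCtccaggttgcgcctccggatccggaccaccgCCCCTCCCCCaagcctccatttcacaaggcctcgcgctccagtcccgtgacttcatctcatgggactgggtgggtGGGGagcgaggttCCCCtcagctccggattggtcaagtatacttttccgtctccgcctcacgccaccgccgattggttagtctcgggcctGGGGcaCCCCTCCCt

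The peaks covered these runs to different extents. A Naive peak covered all 250 upstream bases of Tfrc and 194 of the 250 of Ncoa4, where the summit itself lay inside the run. At Bola2 64 of the 250 upstream bases, those next to its start, lay under a Naive peak. At Ftl1 9 of 250 did, so the Ftl1 sequence shown is mostly the gap between a pair of neighbouring peaks. None of these bases lay under an EpiLC peak.

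Runs of C were unevenly spread over the iron gene starts. CCCC occurred 8 times upstream of Ftl1 (overlapping matches counted) and 5 times upstream of Tfrc. It occurred 0 times upstream of Ncoa4 and of Bola2. Aco1 held 8, Ireb2 6 and Glrx3 4, and Fth1, at a GC content of 34.8%, held 0. The Ireb2 window, 54863505 to 54863754, lay inside the annotated gene body, which begins at 54862658. Among these windows only that of Ncoa4 held a Naive summit, so the bases at the other summits were not searched. A link between these counts and the peaks was not tested. The longer CCCTCCC occurred 2 times at Ftl1, once at Tfrc and at none of the other 6 starts. Over all 27025 RefSeq gene starts, 82.6% of the 250-base upstream windows held CCCC, with a median of 3, and 19.1% held CCCTCCC. These matches describe the letters only, and Slc11a2 and Slc40a1 were not in the sequence table, which held 8 of the 10 genes.

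Ferritin is built from heavy and light subunits, encoded by Fth1 and Ftl1. Ftl1 (chromosome 7, 45457944 to 45459886) had the most peaks of the 10 genes, with 5 Naive summits over 7612 bp. Of all protein-coding genes, 1.81% had 5 or more Naive summits within 20 kb. Counted from the Ftl1 start into the gene, the summits lay at 788, 248, -447, -1237 and -6824 bp.

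The strongest Ftl1 peak, 248 bp inside the gene, had a fold of 4.41 (95% counting interval 2.86 to 6.52). The peak 447 bp upstream had 3.65 (2.32 to 5.50). The peak 788 bp into the gene had 3.04 (2.06 to 4.35) on a local background 2.13 times the genome-wide level, the highest relative background of the 16 peaks. All 5 intervals overlapped, and no Ftl1 peak exceeded the Naive list median.

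The other 2 of the 5 summits were nearer to Bax, the gene of a pro-apoptotic Bcl2-family protein, than to Ftl1. The peak with a fold of 4.27 (2.75 to 6.38) lay 572 bp from an end of Bax, and the second, at 3.65 (2.32 to 5.50), lay 193 bp from its other end. They enter through the 20 kb window, and 3 of the 5 had Ftl1 as nearest gene. EpiLC had no peak within 20 kb of Ftl1. The nearest, 28700 bp away, had a fold of 2.38 (1.73 to 3.19) and lay 302 bp from an end of Dhdh.

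Fth1 (chromosome 19, 9980600 to 9985111), the heavy-chain gene, had 1 Naive peak, at 9978553 to 9978788. Its summit lay 1914 bp upstream of the gene start, with a fold of 3.68 (2.39 to 5.44), and Fth1 was the nearest gene. No summit lay within 1 kb of either Fth1 end in Naive or EpiLC, and the nearest EpiLC summit was 116343 bp away. Among further genes with symbols beginning in Fth or Ftl, 14 were examined (7 of them pseudogenes). Of these, 0 had a Naive or an EpiLC summit within 1 kb, a count with no share of all genes beside it.

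Among the transporters, Tfrc (chromosome 16, 32608896 to 32632794), which encodes the transferrin receptor, had 3 Naive peaks. A summit 27 bp inside the start had a fold of 4.20 (2.64 to 6.37), and a second, 505 bp inside, had 5.60 (3.76 to 8.05). Both stood on the genome-wide background, with 20 and 27 fragments piled up at the summit, and their peaks were 216 bp apart. The third lay 4494 bp beyond the far end of the gene, at 3.14 (1.98 to 4.77). The 5.60 peak ranked 2668 of 12132 by fold, the second highest of the 14 Naive peaks. In EpiLC the nearest summit was 60755 bp from Tfrc.

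Slc40a1 (chromosome 1, 45908070 to 45926532), the gene of the iron exporter ferroportin, was the 1 gene with an EpiLC peak and no Naive peak. The EpiLC peak lay at 45926035 to 45926373, inside the gene and 358 bp from its higher-coordinate end. Its fold of 2.69 (1.88 to 3.74) was above that of 18.1% of EpiLC peaks, and its −log10 q was 3.66. The nearest Naive summit was 112756 bp away. This was the weaker of the 2 EpiLC peaks near iron genes, and requiring a −log10 q of 5 removed it.

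Slc11a2 (chromosome 15, 100387898 to 100424209), which encodes the ferrous iron transporter DMT1, had no peak within 50 kb in either list. The nearest Naive summit lay 50156 bp away with a fold of 5.81 (4.03 to 8.13), 4887 bp from an end of Letmd1. The nearest EpiLC summit lay 63636 bp away, 5739 bp from an end of Mettl7a1. At 12.9 (11.1 to 14.9) it was the 8th strongest peak of the EpiLC list.

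The iron regulatory protein genes had no peak within the window. For Aco1 (chromosome 4, 40143265 to 40199009), whose product is an aconitase when it carries an iron-sulphur cluster and an RNA-binding regulator when it does not, the nearest Naive summit lay 21804 bp away, just outside the window, at 4.88 (3.20 to 7.16). The nearest EpiLC summit was 582152 bp away. For Ireb2 (chromosome 9, 54862658 to 54912534), which encodes the second regulator, an EpiLC summit lay 26375 bp away with a fold of 4.48 (3.46 to 5.71), above 80.8% of EpiLC peaks. Its nearest Naive summit, 38088 bp away at 4.01 (2.52 to 6.09), lay 159 bp from an end of Psma4, a proteasome subunit gene.

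Ncoa4 (chromosome 14, 32159879 to 32179855), the receptor that delivers ferritin to lysosomes for iron release, had the strongest peak of the set. The Naive peak at 32159395 to 32159830 had a fold of 5.80 (3.97 to 8.20) with 30 fragments at the summit and a −log10 q of 12.2. It ranked 2334 of 12132 by fold, above 80.7% of the Naive list. Its summit lay 228 bp upstream of the start, among the first bases of the sequence shown. A second Naive peak lay 16051 bp beyond the far end of the gene, the member peak closest to the edge of the window, at 4.43 (2.85 to 6.61). Just outside the window, 21943 bp from Ncoa4, a Naive peak of 4.996 (3.27 to 7.34) lay 93 bp from an end of Timm23. The nearest EpiLC summit was 285585 bp away.

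Part of the Ncoa4 upstream sequence recurred at other genes. Of its 230 overlapping words of 21 bases, 49 also occurred, on either strand, in the upstream window of at least 1 other gene, and the most frequent occurred in 15 others. The 21 bases centred on the summit occurred in 5 other windows. Only the upstream windows of gene starts were searched, so copies elsewhere in the genome were not counted. No 21-base word of the Tfrc or Ftl1 sequences occurred in another window. All 196 words of the Bola2 sequence occurred in 1 other, that of Slx1b, which spans the same bases. The part of this recurrence in the height of the Ncoa4 peak was not tested.

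Bola2 (chromosome 7, 126696000 to 126696693), partner of Pcbp1 in supplying iron to the shared cluster, had peaks in both states. Its start lies 217 bp from that of Slx1b, a DNA-repair endonuclease subunit gene transcribed the other way. In Naive a summit 74 bp inside Bola2 had a fold of 4.82 (3.26 to 6.89), and a summit 477 bp upstream had 4.53 (2.97 to 6.65). In EpiLC 1 summit lay 452 bp upstream, at 3.64 (2.70 to 4.80). The upstream peaks of both states lay inside Slx1b, 260 and 235 bp from its end, and nearer to Slx1b than to Bola2.

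The upstream Bola2 peaks were the 1 pair shared by Naive and EpiLC, with summits 25 bp apart and 180 bp in common. The Naive fold was 1.25 times the EpiLC fold, with a counting interval of 0.715 to 2.03 that includes no difference. Across all 1657 Naive peaks that overlapped an EpiLC peak, the median ratio was 1.46 (quartiles 1.14 and 1.88). When the pileup was divided by the genome-wide in place of the local background, the Bola2 ratio turned to 0.860, beside a median of 1.01 (0.842 to 1.19). Of the Naive peaks near iron genes, 1 of 14 overlapped an EpiLC peak, beside 13.7% of all Naive peaks. Of the EpiLC peaks near them, 1 of 2 overlapped a Naive peak, beside 48.3% of all EpiLC peaks.

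Glrx3 (chromosome 7, 137437573 to 137469631), the monothiol glutaredoxin that shares an iron-sulphur cluster with Bola2, had 1 Naive peak deep inside the gene. Its summit lay 21026 bp from the start and 11032 bp from the far end, with a fold of 3.49 (2.19 to 5.30). This was above 14.1% of Naive peaks. The nearest EpiLC summit was 1470706 bp away.

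**Figure D2:**
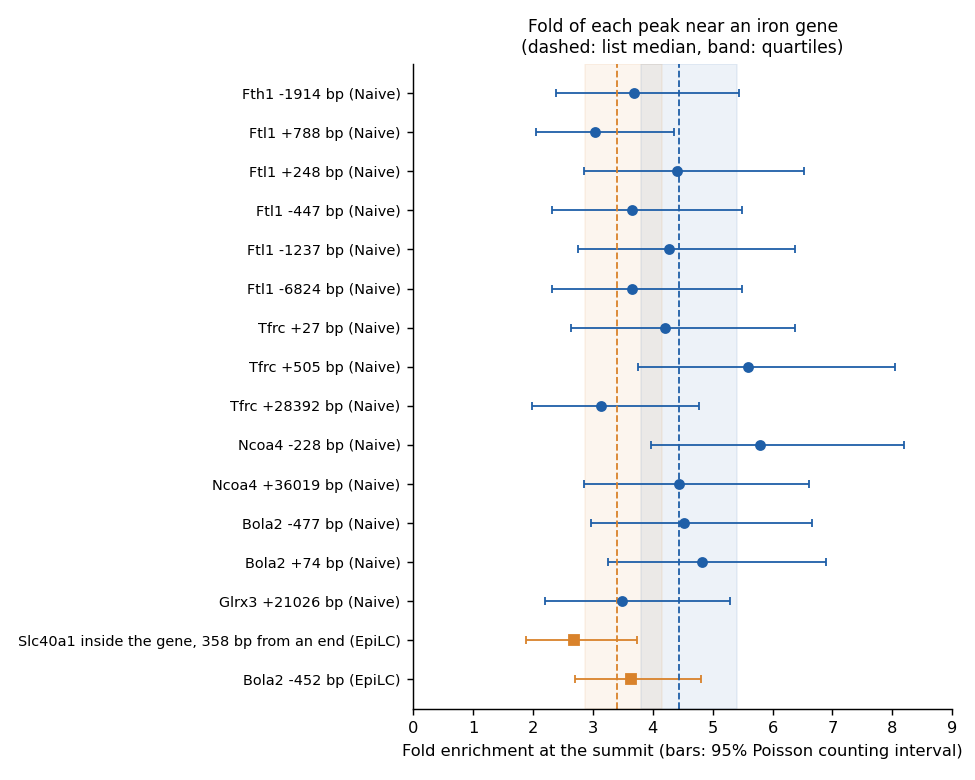
Fold enrichment at the summit of each of the 16 peaks within 20 kb of an iron gene, with 95% Poisson counting intervals. Labels give the distance from the gene start, positive into the gene, and the peak list. Dashed lines are the medians of the whole lists (4.43 in Naive, blue circles, and 3.41 in EpiLC, orange squares) and bands their quartiles. The Naive folds run from 3.04 to 5.80 with overlapping intervals.

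The 14 Naive folds ran from 3.04 at Ftl1 to 5.80 at Ncoa4, with a median of 4.24. Of them, 9 lay below the median of the Naive list and 4 above it, and 1 equalled it. The highest of them ranked 2334 of 12132. The intervals of the weakest peak (2.06 to 4.35) and of the strongest (3.97 to 8.20) overlapped. Overlap of separate intervals does not show that 2 folds are equal, and the order of the genes by fold was not tested. Between 20 and 30 fragments were piled up at each Naive summit, and 33 and 48 at the EpiLC summits. The median width of the 14 peaks was 306 bp, beside 362 bp in the whole Naive list.

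The EpiLC list could hold weaker peaks than most of these. At its own genome-wide background the lowest fold in the EpiLC list was 2.85, and all 14 Naive folds were higher. Folds ran lower in EpiLC, however. Divided by the median ratio of shared peaks, 1.46, the 14 Naive folds became 2.08 to 3.96, and 8 of 14 stayed above 2.85. Only 283 of the 3494 EpiLC peaks stood at the genome-wide background. On higher local backgrounds the list held lower folds, such as 2.69 at Slc40a1, so 2.85 is not a limit of the whole list. A gene without an EpiLC peak is therefore not shown to lack Pcbp1 in EpiLC.

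Of the 14 Naive peaks, 8 had their summit within 1 kb of an end of the iron gene itself, and for 10 of 14 that gene had the nearest annotated end of any gene. Counting the ends of any protein-coding gene, 10 of 14 summits lay within 1 kb of one, beside 41.2% of the 9321 Naive peaks within 20 kb of a protein-coding gene body. Of the 8 iron genes with a start in the sequence table, 4 had a Naive summit within 1 kb of it, beside 20.0% of 17492 protein-coding starts, and 1 had an EpiLC summit there, beside 5.49%. At 3 of these 4 starts (Ftl1, Tfrc and Bola2) there were 2 or more Naive summits within 1 kb, beside 1.92% of all starts and 9.58% of the starts with any summit. At Ftl1 and Bola2 summits lay on both sides of the start, which held for 7.32% of starts with a summit.

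**Figure D3:**
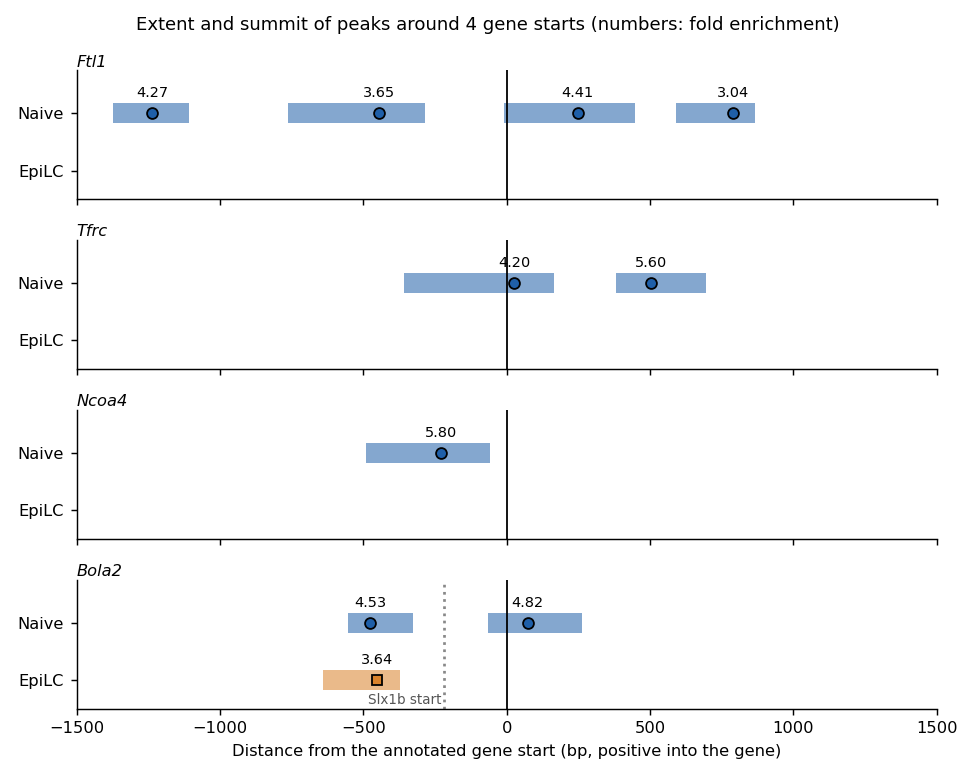
Peaks within 1.5 kb of the starts of Ftl1, Tfrc, Ncoa4 and Bola2. The horizontal axis is the distance from the annotated start in bp, positive into the gene. Bars are the extent of each peak, symbols its summit, numbers its fold enrichment, and the dotted line the start of Slx1b. Separate Naive peaks stand around the starts of Ftl1, Tfrc and Bola2, and the 1 EpiLC peak overlaps the upstream Naive peak of Bola2.

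Other genes of iron metabolism were taken from 4 lists with 75 genes in all. Of the 75, 26 had a Naive gene-end summit, within 1 kb of either end (34.7%, beside 19.3% overall), and 4 an EpiLC one (5.33%, beside 5.61%). Within 20 kb of the body the shares were 54.7% in Naive, beside 44.0%, and 18.7% in EpiLC, beside 17.3%.

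Iron-sulphur cluster genes had Naive gene-end peaks at 13 of 26 genes and EpiLC ones at 2. Hspa9, the mitochondrial Hsp70 that works in cluster transfer, reached 11.4 in Naive (8.63 to 14.7) and 3.81 in EpiLC (3.07 to 4.68). The scaffold gene Iscu had 7.40 (5.55 to 9.69) in Naive, at a peak also within 1 kb of Sart3, and no gene-end peak in EpiLC. Lyrm4, a subunit of the cysteine desulphurase complex, had 7.39 in Naive and 4.27 in EpiLC at peaks that also lay at Fars2. Each of these 3 Naive folds was above the highest of the 10 iron genes, 5.80 at Ncoa4. The interval of Hspa9 lay above that of Ncoa4 (3.97 to 8.20), while those of Iscu and Lyrm4 (5.24 to 10.2) overlapped it.

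Haem genes had Naive gene-end peaks at 7 of 17 and EpiLC ones at 2. Ppox, protoporphyrinogen oxidase, reached 11.3 in Naive (8.70 to 14.4) and 5.88 in EpiLC (4.85 to 7.07), at peaks also within 1 kb of Usp21. The list of iron-dependent hydroxylases and their subunits had 5 of 12 in Naive and 0 in EpiLC. Among the 5 was P4hb, the gene of a non-catalytic subunit. Dohh and the prolyl hydroxylases of the hypoxia pathway are known to receive iron with help from Pcbp1. Among the 5, Egln2 is a prolyl hydroxylase gene of that pathway, and it had 3.12 (1.92 to 4.84) in Naive. Hif1an, the gene of an asparagine hydroxylase, reached 5.40 (3.59 to 7.81) and Dohh 3.99 (2.67 to 5.73).

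Of the genes of other iron transport and its control, gene-end peaks were found at 1 of 20 in Naive and at 0 of 20 in EpiLC. The 1 was Slc39a14, a zinc and iron importer, at 5.20 (3.43 to 7.57). Of the poly-C-binding protein genes, Pcbp1 itself reached 10.8 in Naive (8.13 to 14.1) and 5.18 in EpiLC (4.11 to 6.45). Pcbp4 had 3.15 (2.33 to 4.17) in EpiLC at a peak also at Abhd14b, and neither Pcbp2 nor Pcbp3 had a summit within 1 kb of an end in Naive or EpiLC.

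**Figure D4:**
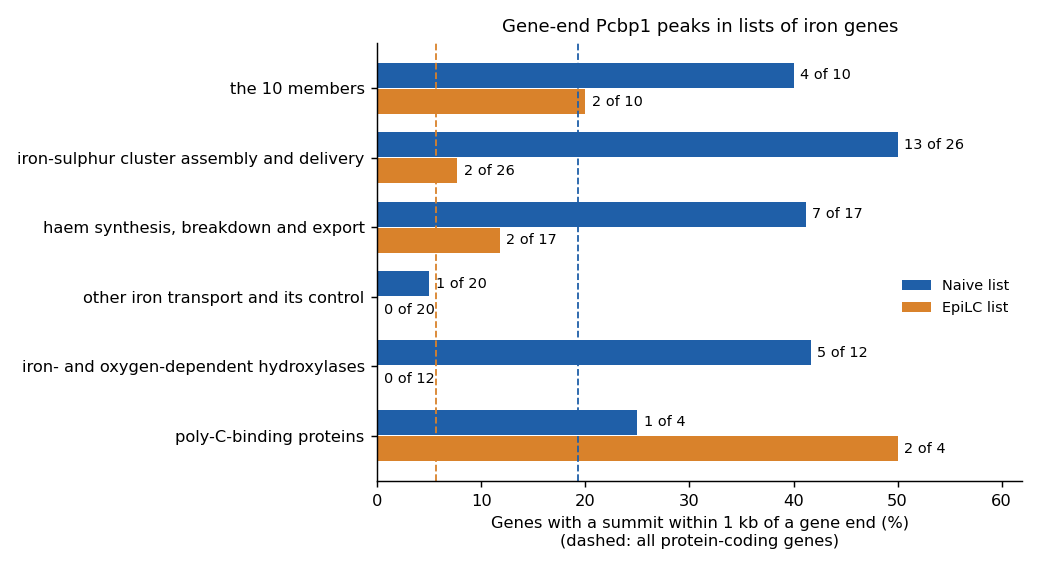
Share of genes with a Pcbp1 summit within 1 kb of a gene end, by list of iron-related genes. Bars are percentages of the genes in each list (blue Naive, orange EpiLC), labels the counts, and dashed lines the shares of all 21887 protein-coding genes (Naive 19.3%, EpiLC 5.61%). Iron-sulphur cluster genes reach 13 of 26 in Naive, and genes of iron transport and its control 1 of 20.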

How the data were processed

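The 10 genes, the other gene lists and the motifs were chosen with earlier results of these data known. The authors deposited 1 peak list per state, and each state had 1 ChIP library per the labels, so no replicates were pooled. fastp, Bowtie2, Picard, MACS2 and build GRCm38 (mm10) are named in the submitters' processing notes, without versions, roles or order. The sources used here do not give the control used for calling. The deposited columns used were the fold enrichment, a ratio over local background, the −log10 p-value and −log10 q-value, and the other deposited value used places the summit within the peak. The lowest −log10 q was 2.021 in the Naive list and 2.018 in the EpiLC list.

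Pileups were recovered by taking the fold for (pileup + 1) / (background + 1) and the p-value for a Poisson upper tail. For 100% of peaks exactly 1 whole number matched the authors' −log10 p to within 0.001. Intervals at 95% are exact Poisson intervals of that pileup (for the Bola2 ratio, an exact conditional interval) with the background taken as known. They cover counting error only. The genome-wide background is the lowest in a list. Coordinates are 1-based. Genes came from RefSeq GRCm38.p6 (10 of 10 matched by symbol), strand and starts from its promoter table, of which the 250 bases before the start were used and the 50 after left out. Exons were not used here. Peaks overlapped at 1 bp or more. The genes named are the 10, the genes with an end nearest to or within 1 kb of a peak described, and up to 4 per list with the highest fold. Beside them, Pcbp2 and Pcbp3 are named as genes without such a peak, and Egln2 as a prolyl hydroxylase gene with one. No test was run, since each state had 1 library. The code was tested on simulated data. The software was scipy 1.17.1, numpy 2.4.6, pandas 2.3.3 and matplotlib 3.10.9 under Python 3.11.15. Alternatives were other windows, stricter thresholds, a shortened Naive list, other overlap rules and pileups in place of folds.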

Additional observations from a re-analysis of the deposited data

How the results depend on the processing

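The overlap counts, 1 Naive and 1 EpiLC peak, did not move with an overlap of at least 50% of the shorter peak or with summits within 250 bp. The 6 genes with a Naive peak became 8 within 50 kb, 6 within 5 kb, 4 within 1 kb of a gene end and 5 where −log10 q had to reach 5. Where the fold had to reach 5, or where only the 3494 Naive peaks of lowest p-value were kept, 2 genes (Tfrc and Ncoa4) were left. Apart from the 20 kb window and the gene ends, no share of all genes is given for these settings. The 14 Naive peaks became 23 within 50 kb, 12 within 5 kb, 8 within 1 kb of a gene end, 9 at the stricter q, 2 at the stricter fold and 2 in the shortened list. In EpiLC, the 2 genes and 2 peaks became 4 and 4 within 50 kb, 1 and 1 at the stricter q and 0 and 0 at the stricter fold, and stayed at 2 within 5 kb and within 1 kb of a gene end. The fold ratio of the shared Bola2 peaks, 1.25, reversed to 0.860 with the pileup over the genome-wide background, because the local background there was 1.68 times the genome-wide level in EpiLC and 1.13 times in Naive. No paired analysis was possible because each state had 1 ChIP library. At 20 to 48 fragments per summit, the counting intervals of most folds overlap.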
